A study of Mus musculus with 4 samples.

Results

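The cohesin landscape of undifferentiated mouse embryonic stem cells (ESCs) is described here from the RAD21-GFP ChIP-seq library and the IgG control library of these cells, which are 2 of the 4 libraries of the series. All 15085 RAD21 sites that were called on the 19 autosomes were taken, out of 15311 called in all, and no site was selected by its strength. The cells were R1/E ESCs at day 0 of differentiation, grown with LIF. They carried a bacterial artificial chromosome (BAC) with Rad21 fused at its C terminus to a GFP-containing LAP tag, which the control sample carried too. Resistant clones had been sorted for GFP, the endogenous Rad21 gene was kept, and the tagged copy ran from its own BAC sequence. Chromatin was precipitated with a goat antibody against eGFP or with a goat IgG isotype control. The control is also described as input DNA in its labels, and it is called IgG here. There was 1 library on each side and no replicate, so no p-value is given, and all intervals are at the 95% level and cover counting error only.

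RAD21 is the kleisin subunit that closes the cohesin ring around DNA together with SMC1A and SMC3. Cohesin holds sister chromatids together and extrudes chromatin loops, and it is often halted at sites bound by CTCF, a zinc finger protein whose motif has a direction. In ESCs the complex is also found with transcriptional regulators away from CTCF. A landscape of RAD21 is therefore commonly read against CTCF motifs, gene starts, gene ends and gene density.

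Sequences of 5 sites are shown first, because they are the highest-scoring sites at a gene start (1 without and 1 with a CTCF motif), at a gene end, in the leading cluster and in a gene-poor region. All are on mm9, on the plus strand, around the summit (the position where most reads pile up). Capitals mark the 20 bases that matched the CTCF matrix described further on. The first has no match in its window.
2610002J02Rik: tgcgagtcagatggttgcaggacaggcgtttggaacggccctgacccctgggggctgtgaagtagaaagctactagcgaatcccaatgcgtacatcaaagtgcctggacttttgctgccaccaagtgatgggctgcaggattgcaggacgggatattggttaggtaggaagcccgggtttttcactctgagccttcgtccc
Sdk2: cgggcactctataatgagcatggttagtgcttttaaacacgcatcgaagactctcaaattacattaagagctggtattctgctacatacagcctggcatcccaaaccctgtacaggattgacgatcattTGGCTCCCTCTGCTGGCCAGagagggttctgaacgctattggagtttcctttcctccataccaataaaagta
Nt5m: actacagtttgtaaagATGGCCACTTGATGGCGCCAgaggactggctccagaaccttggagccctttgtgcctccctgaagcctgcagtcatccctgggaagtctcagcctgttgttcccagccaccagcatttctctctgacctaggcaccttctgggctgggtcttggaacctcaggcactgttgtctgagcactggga
cluster 1: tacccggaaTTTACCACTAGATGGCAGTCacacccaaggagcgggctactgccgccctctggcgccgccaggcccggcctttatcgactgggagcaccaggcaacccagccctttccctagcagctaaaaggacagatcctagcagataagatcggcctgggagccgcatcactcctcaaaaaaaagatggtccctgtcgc
gene-poor site 1: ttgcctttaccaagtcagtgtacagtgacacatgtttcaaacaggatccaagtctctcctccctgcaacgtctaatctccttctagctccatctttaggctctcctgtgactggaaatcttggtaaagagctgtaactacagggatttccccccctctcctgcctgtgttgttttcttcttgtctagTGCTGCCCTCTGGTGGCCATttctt

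The first sequence is chr4:154623422-154623622. Its summit lay 389 bp before the start of 2610002J02Rik, between annotated genes, and within 250 bp of it there were 77 RAD21 reads and no IgG read. The second, chr11:113672579-113672779, had its summit 942 bp before an annotated start of Sdk2, a cell adhesion molecule of the immunoglobulin superfamily, in an intron of its longer models, with 59 RAD21 and 4 IgG reads. The third, chr11:59693589-59693789, lay 781 bp before the end of Nt5m, which encodes a mitochondrial nucleotidase, in an exon, with 87 RAD21 and 4 IgG reads. The fourth sequence named above, chr11:66719469-66719669, came from the cluster at Pirt, a regulator of sensory ion channels, in an intron of the noncoding gene Gm12298, with 67 RAD21 and 4 IgG reads. The last, chr8:60279208-60279419, came from a gene-poor bin and lay within Galntl6, a member of the family that starts mucin-type glycosylation, in an intron, with 70 RAD21 and 7 IgG reads. The motif matched the plus strand at Nt5m and at the Pirt cluster and the minus strand at Sdk2 and Galntl6.

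The RAD21 library held 14133430 reads, of which 13714772 were autosomal, and the IgG library held 13002597 reads, of which 12602155 were autosomal. Sites covered 0.568% of the known autosomal sequence. They held 3.65% of the RAD21 reads and 0.651% of the IgG reads. A window of 100 kb around the Rad21 gene held 5.19 times the median read count of other windows in the RAD21 library and 5.20 times in the IgG library, with a RAD21 to IgG ratio of 0.992 (0.940 to 1.05). The window of the gene that the BAC carries was thus high in both libraries alike, and it held 1 site.

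RAD21 exceeded IgG at every one of the 15085 autosomal sites, which is the condition on which they had been called and is given as a description. Reads were moved to the fragment centre, counted within 250 bp of the summit, scaled to autosomal reads and compared after adding 1 read, whereas the ratios of single named sites, clusters and genes were formed without an added read and are not on the same scale. The median ratio was 5.82, with the middle of the distribution between 4.13 and 8.73. A ratio of 10 or more was found at 18.3% of sites. Counts behind these ratios were small, with a median of 23 RAD21 reads (9 to 100) and 3 IgG reads (0 to 14), and 816 sites (5.41%) had no IgG read. The score of a site, which MACS computes as 10 times the negative log10 of a p-value, had a median of 94.5 and ranged from 50.0 to 770.2. Sites were 892 bp wide in the median.

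Averaged over the sites, the RAD21 signal was highest at the summit. The summits had been placed where these same RAD21 reads pile up, so a central peak was given in advance and is only described. RAD21 reads reached 6.84 reads per 1000000 autosomal reads (RPM) per kb in the 100 bp after the summit and fell to 0.749 RPM per kb at 500 to 600 bp from it. IgG stood at 0.523 and 0.397 RPM per kb in the same bins. The control was thus also higher at the summits than beside them, by far less than RAD21. Since the IgG reads had no part in placing the summits, the size of this contrast is a description too.

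Sites were unevenly spaced along the chromosomes. Neighbouring summits were 74.7 kb apart in the median (interval 72.7 to 76.6, n = 15066 distances), while the mean was 159 kb. Distances ran from 420 bp to 8051 kb, and their SD was 1.86 times their mean. Another site lay within 10 kb of 23.5% of the sites (22.8 to 24.2) and within 100 kb of 81.2%. In bars of equal log width, which widen with distance in kb, counts were highest between 50 and 200 kb, as the plot of spacing shows. This is not a preferred distance, since per kb short distances were more frequent. From 1 to 2 kb there were 291 distances, and in the far wider range of 50 to 100 kb there were 2992. With the score limited to at least 100, which kept 6948 sites, the median distance was 161 kb and the SD was 1.76 times the mean.

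**Figure D1:**
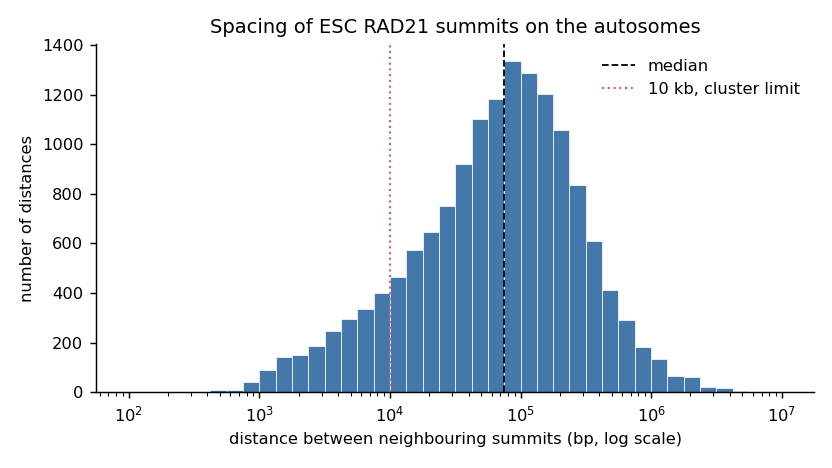
Number of distances between neighbouring autosomal RAD21 summits in ESCs, by distance in bp on a log axis, with bars for equal log steps. The dashed line marks the median of 74.7 kb and the dotted line the 10 kb limit used to join sites into clusters. Another site lies within 10 kb of 23.5% of the sites.

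Sites joined within 10 kb formed few large groups. Sites with no other within 10 kb made up 76.5% of all, pairs held 18.6%, and 235 clusters of 3 or more sites held 740 sites (4.91%, 4.57 to 5.26). Of these clusters 206 had 3 sites, 23 had 4 and 6 had 5, and none had more. Sites in triplets had a median score of 106 and single sites one of 93.4, while those in clusters of 4 and 5 had 90.1 and 87.3. A steady rise of score with cluster size was therefore not seen.

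The 6 clusters of 5 sites lay at genes of unrelated function. The cluster that overlaps Pirt spanned 15.6 kb of chromosome 11, and its sites held 20, 22, 13, 67 and 29 RAD21 reads against 3, 3, 2, 4 and 3 IgG reads. Thus 1 strong site stood among weaker ones. Sites 1 and 2 lay almost edge to edge, as did sites 3 and 4, and site 3 had a score of only 51.2. The cluster nearest to Gli2, a transcription factor of Hedgehog signalling, lay 21492 bp from that gene on chromosome 1 and spanned 18.8 kb. Its sites held 20, 33, 51, 39 and 33 RAD21 reads against 2, 4, 1, 2 and 6 IgG reads, and all 5 matched the CTCF matrix at the looser limit given below. In 4 of its sites there were at least 33 reads, so its signal was shared more evenly. Its sites 2 and 3 also lay almost edge to edge. Over its whole span, gaps between the sites included, RAD21 was 3.39 times IgG (2.70 to 4.29).

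Myo18a, an unconventional myosin, held 5 clustered sites over 19.03 kb with 41, 16, 27, 17 and 31 RAD21 reads and 6, 3, 5, 2 and 4 IgG reads. A cluster that overlaps Cblc, a ubiquitin ligase of the Cbl family, had 5 over 20.5 kb with 30, 21, 16, 24 and 20 RAD21 reads and 5, 1, 0, 3 and 1 IgG reads. The other clusters of 5 overlapped Tex21 (22.5 kb) and Gabrp (26.7 kb), the pi subunit of the GABA-A receptor. They were weaker, with ratios over the span of 1.54 (1.24 to 1.92) and 1.75 (1.49 to 2.06). The cluster at Gabrp was the exception in sequence, as 1 of its 5 sites matched the matrix at the looser limit, while the other clusters of 5 had 4 or 5 matches. The tightest of the leading clusters were those of 4 sites in Vgll4, a cofactor of TEAD factors, over 3.14 kb, and in Ninj2, a ninjurin adhesion molecule, over 6.49 kb.

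At the other extreme, long stretches held no site. The longest, at the start of chromosome 14, had 5.28 Mb of known sequence with 118 protein-coding starts, 114 of them of genes named Gm, but only 23.3 IgG RPM per Mb. A stretch of 4.30 Mb of known sequence on chromosome 7 with 110 starts, 64 of them of vomeronasal receptor genes (Vmn), had 64.5 IgG RPM per Mb. In both, few reads of any kind were placed. The other 6 leading stretches had 1 to 6 starts and 201 to 482 IgG RPM per Mb, lowest in one of 4.11 Mb on chromosome 6. Those of 4.89 Mb around Bai3 on chromosome 1, 4.49 Mb on chromosome 4 with 1 start, that of Epha7, and 3.94 Mb on chromosome 5 with 1 start, that of Pcdh7, had 339, 380 and 376 IgG RPM per Mb. Their ratios of RAD21 to IgG reads were 0.913, 0.922 and 0.930. These genes were named after their values had been seen.

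Gene-rich regions held more sites. The autosomes were cut into 2384 bins of 1 Mb, which were ordered by protein-coding gene starts and divided into 5 quintiles. Site density rose in each step, from 1.87 sites per Mb in quintile 1, the poorest, through 4.17, 6.86 and 8.24 to 10.3 in quintile 5, the richest. The ratio of the richest to the poorest was 5.53 (5.15 to 5.95, which covers counting error and not the spread between bins). IgG reads did not rise in the same way, with 407, 424, 437, 422 and 400 RPM per Mb. Bins without a site numbered 138, 34, 3, 12 and 19 from the poorest to the richest quintile of 476 or 477 bins, so they were fewest in quintile 3 and not in the richest. The sites of gene-poor bins were about as strong as the others, with a median score of 87.2 in quintile 1 and 94.96 in quintile 5 and with 22 and 23 RAD21 reads.

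**Figure D2:**
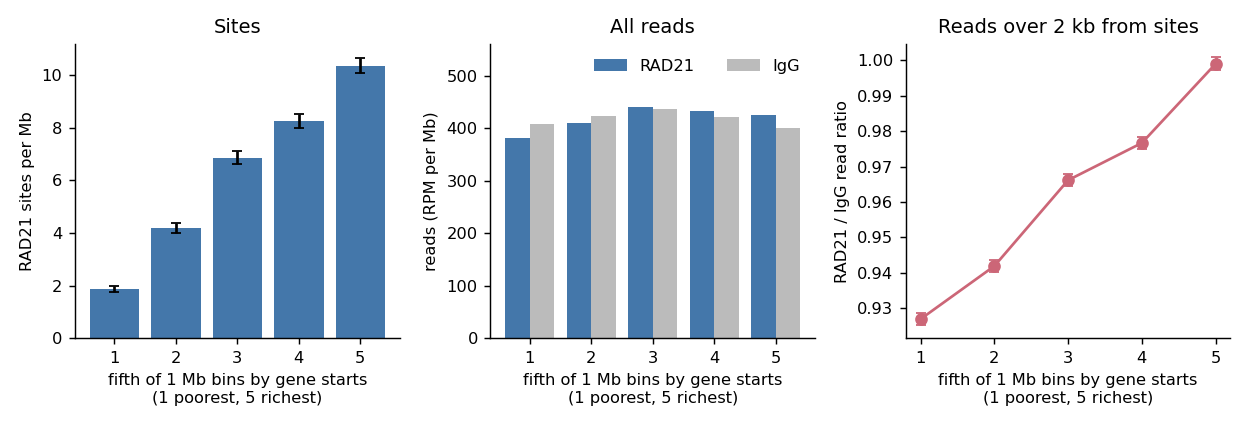
The 3 panels give RAD21 sites per Mb (bars with 95% counting intervals), RAD21 and IgG reads in RPM per Mb, and the ratio of RAD21 to IgG reads over 2 kb from any site (points with 95% counting intervals, axis not from 0), for 5 quintiles of 1 Mb bins by protein-coding gene starts. Sites rise from 1.87 to 10.3 per Mb while IgG reads lie between 400 and 437 RPM per Mb, and the ratio outside sites rises from 0.927 to 0.999.

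The reads that lay outside the sites shifted in the same direction, by much less. Over 2 kb from any site, the RAD21 to IgG ratio was 0.927, 0.942, 0.966, 0.977 and 0.999 from the poorest to the richest quintile, and the intervals of these 5 values did not overlap. GC content moved with both, from 38.5% to 45.2%. Within every quintile the bins of higher GC held more sites than those of lower GC, with 2.79 against 0.958 sites per Mb in the poorest and 12.9 against 7.75 in the richest. Across bins, Spearman's rank correlation of site density was 0.65 with gene starts, 0.77 with GC content and 0.31 with IgG reads. These are descriptions, because neighbouring bins share their library and base composition, and the part of GC content in the result was not tested.

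Site counts per bin varied more than their mean. The mean was 6.27 sites per bin with a variance 3.77 times as large, 206 bins had none, and the 10% of bins with most sites held 25.8% of them. The densest were 2 bins of chromosome 11 with 29 sites each, at 72 to 73 Mb and at 117 to 118 Mb, the latter with Sept9, which encodes a cytoskeletal GTPase, and Birc5, which encodes survivin. A bin of chromosome 11 with the Hoxb cluster and a bin of chromosome 6 with Nanog, Dppa3 and Gdf3, genes of the pluripotent state, had 26 sites each.

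Chromosome 11 stood apart with 11.7 sites per Mb (11.1 to 12.3). The other autosomes had between 4.41 (chromosome 14) and 7.61 (chromosome 6). Chromosome 11 also had most IgG reads per length, with 575 RPM per Mb, and chromosomes 8 and 6 followed with 507 and 496, while the others had 357 to 414. Per 10000 IgG reads chromosome 11 had 16.1 sites, still the highest, and the others had 9.50 to 14.5. Chromosome 11 thus led in both coverage and sites. It also had the highest GC content of the autosomes, 43.8%, and 13.9 genes per Mb. Only chromosome 7 had more genes per Mb, 14.6, and it held 6.36 sites per Mb. The parts of coverage, GC content and gene density in the site count of chromosome 11 were not tested. Among the others, chromosomes 6 and 8 had 7.61 and 7.12 sites per Mb. Chromosomes 19 and 9, each with 413 IgG RPM per Mb, had 7.55 and 7.27. The sites of chromosome 11 had a median of 26 RAD21 and 4 IgG reads.

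**Figure D3:**
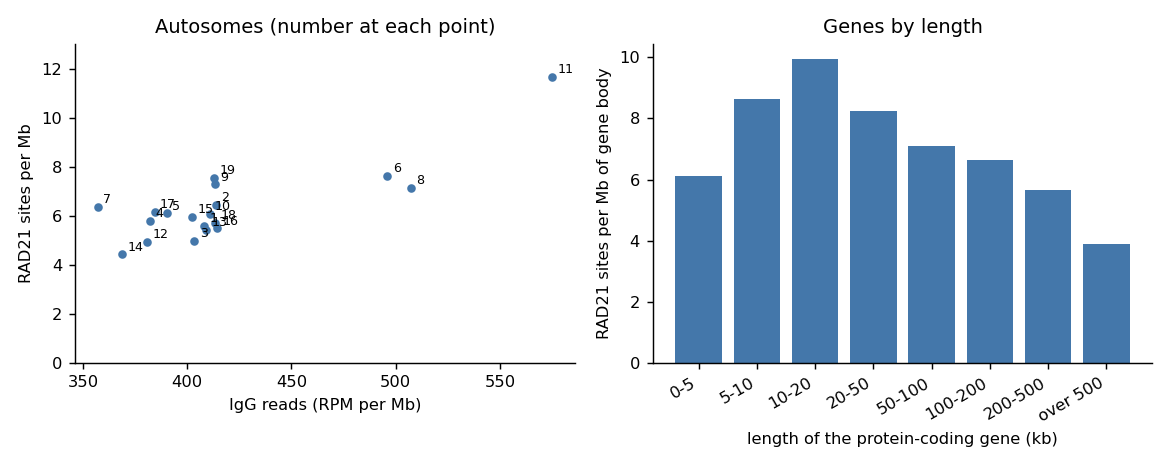
Left, RAD21 sites per Mb against IgG reads in RPM per Mb for each of the 19 autosomes, whose number is beside its point (horizontal axis not from 0). Right, sites per Mb of gene body for protein-coding genes in 8 classes of length in kb. Chromosome 11 lies alone at 11.7 sites per Mb and 575 RPM per Mb, and site density falls from 9.94 per Mb in genes of 10 to 20 kb to 3.90 per Mb in genes over 500 kb.

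Sites were then placed relative to the 21418 protein-coding genes of the autosomes. Each was put into 1 class, first within 1 kb of a start, then within 1 kb of an end, then in a gene body, then between genes. Sites within 1 kb of a start were 791 (5.24%), at 10.4 sites per Mb of such sequence, or 1.65 times their share of the sequence (1.54 to 1.76). Sites within 1 kb of an end were 429 (2.84%), at 12.1 per Mb or 1.91 times (1.74 to 2.10). Gene bodies held 5552 sites at 6.39 per Mb, which was 1.01 times their share. Between genes the distance mattered, with 10.5 sites per Mb up to 50 kb from a gene (1.66 times) and 2.77 farther away (0.439 times). The surroundings of genes, starts and ends were thus richer in sites than gene bodies, and remote intergenic sequence was poorest.

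Few genes had a site at their own start or end. A site lay within 1 kb of a start in 801 genes (3.74% of the 21418), within 1 kb of the end in 478 (2.23%), and in the body in 4131 (19.3%). Within 10 kb of the body or in it, 7981 genes (37.3%) had a site.

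At starts, summits lay on the upstream side. Of 497 pairs of a summit and an outermost gene start within 1 kb, 382 (76.9%, 72.9 to 80.5) had the summit before the start. The density was 25.5 summits per kb per 1000 genes in the 200 bp before the start, 6.31 in the 200 bp after it and 3.12 from 200 to 500 bp after it. Farther upstream, from 2 to 5 kb, it was 12.2, and at the same distance downstream 7.56. Reads of both libraries were scarce just after the start, where IgG fell to 0.254 RPM per kb in the first 250 bp, against 0.391 at 1000 to 1250 bp, and RAD21 fell to 0.332. The deficit of summits thus lay where the control had fewer reads, and the part of this coverage was not tested. The ratio of RAD21 to IgG was 1.43 (1.41 to 1.46) in the 250 bp before the start and 1.31 (1.28 to 1.33) in the 250 bp after it.

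At gene ends the sides were reversed and less unequal. Of 484 pairs within 1 kb, 205 (42.4%, 37.9 to 46.9) had the summit before the end, so the larger share lay after it. The density was 5.61 summits per kb per 1000 genes in the last 200 bp of genes, 12.4 in the next 200 bp and 15.3 from 2 to 5 kb after the end. The ratio of reads around ends lay between 1.06 and 1.10 in the kb on either side.

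**Figure D4:**
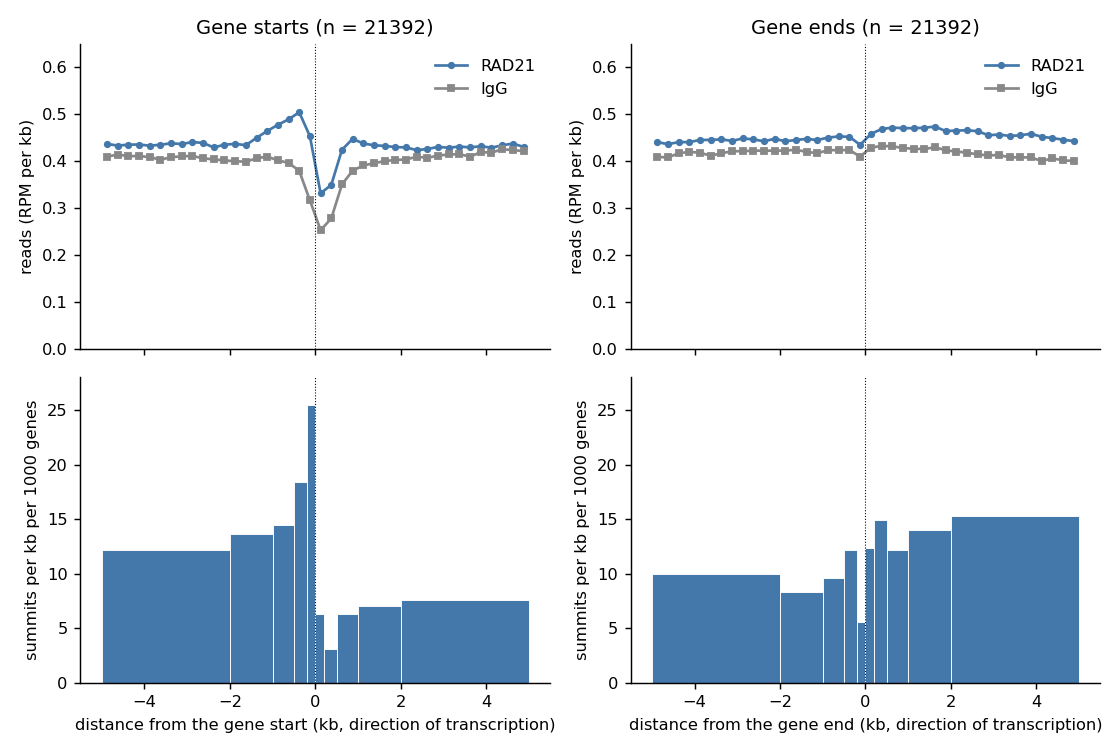
Upper panels, RAD21 and IgG reads in RPM per kb (250 bp bins) around 21392 outermost starts and 21392 ends of protein-coding genes. Lower panels, RAD21 summits per kb per 1000 genes in bins of unequal width. RAD21 rises to 0.505 RPM per kb at 250 to 500 bp before starts and is 0.454 in the 250 bp before them. Summits reach 25.5 per kb per 1000 genes in the 200 bp before starts. IgG dips to 0.254 RPM per kb after starts, and both libraries are nearly level around ends.

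Over all 21392 gene starts, counted within 500 bp on each side, RAD21 was 1.33 times IgG (1.32 to 1.35), and it was 1.25 times (1.24 to 1.26) over the starts more than 2 kb from any site. The ends far from sites were at 1.01 (0.997 to 1.01). Tiles of 1 kb over the autosomes that were as far from sites had a pooled ratio of 0.962, which is the background for both values. Median counts per window were 5 RAD21 and 3 IgG reads at starts and 5 and 5 at ends and in tiles of 1 kb. Single windows were therefore thinly covered. Among windows with at least 10 reads in both libraries together, 2142 of 9197 starts reached a ratio of 2 (23.3%), as did 1613 of 12860 ends (12.5%) and 136882 of 1408024 tiles over the autosomes (9.72%). Since IgG was low at starts, a start passed this read limit more easily where RAD21 was high, so these percentages describe the windows that passed and are not a measure of all starts. Of the starts at 2-fold, 16.5% had a site within 1 kb.

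The site with the highest score at a start was that of 2610002J02Rik shown above, where RAD21 was at least 23.6-fold higher than IgG when the IgG count of 0 is taken as up to 3 reads, a bound that leaves out the counting error of the RAD21 reads. With the error of both counts included, the lower limit was 18.7-fold. At Sdk2 the ratio was 13.6 (5.02 to 51.4). Wbscr28 followed, with 65 RAD21 reads and 1 IgG read at a summit 689 bp before the start, a ratio of 59.7 with a wide interval of 10.3 to 2395. Sept9 had 67 and 6 reads, and Dusp13, a dual specificity phosphatase, 58 and 4. At 9230104L09Rik there were 62 and 5 reads, at Ttc24 there were 51 and 1, at Spns1 34 and 2, and at Ninj2 54 and 5. In 8 of these 10 genes the summit lay before the nearest annotated start, the exceptions being 1700063H04Rik and Ttc24. The gene 1700063H04Rik, in the chromosome 6 bin of Nanog, had 57 RAD21 reads and no IgG read at 1 site that lay within 1 kb of both its start and its end, with a lower limit of 13.7-fold from the counting error of both libraries.

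At gene ends, Nt5m had the highest score, with a ratio of 20.0 (7.53 to 74.99). Mab21l3 had 68 RAD21 and 2 IgG reads, and Slc36a2, a proton-coupled amino acid transporter, 59 and 4. Ttyh3, a member of the tweety family of channels, had 58 and 2 reads. Ebf1, a transcription factor of B cell development, had 62 and 3 reads with the summit 235 bp after its end. BC030870 had 60 and 5, and Upp1, uridine phosphorylase, 62 and 7. These 8 ends were chosen for their scores, so the values describe them and are not a comparison with other ends.

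Site density was highest in genes of 10 to 20 kb, with 9.94 sites per Mb of body. It was 6.11 in genes up to 5 kb and 8.65 in those of 5 to 10 kb, and above 20 kb it fell with length to 3.90 in genes over 500 kb. From 10 to 20 kb to over 500 kb the share of genes with a site rose from 13.1% to 86.7%. At least 5 sites were found in 109 genes (0.509%). The counts of the 2 leading models, Gm20388 with 54 sites over 4435 kb and Fgfr2 with 20 over 3009 kb, cannot be assigned to a gene of usual size, because these annotated models overlap 74 and 32 other protein-coding genes. Arfip1, with 10 sites over 1391 kb, overlaps 6 others, and 5 of its sites lay outside them.

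Among genes with few or no overlaps, Etl4 held 13 sites over 901 kb and Pde4d, a cAMP phosphodiesterase, 13 over 1504 kb. The sites of Pde4d were 16.8 kb apart in the median and those of Etl4 29.7 kb. Slc39a11, a zinc transporter, held 11 over 405 kb, or 2.71 per 100 kb, with a highest score of 131. Arhgap26 held 10 whose scores reached 519, and Accn1, an acid-sensing ion channel, held 10. Msi2, an RNA-binding protein, had 9 sites, of which 3 matched the CTCF matrix at the looser limit, and RAD21 reads over its whole body were 1.28 times IgG (1.22 to 1.35). This was the highest ratio over the body among the 15 genes with most sites. Slit3, a secreted guidance molecule, had 9 sites with a median score of 170.2, and Dlg2, a synaptic scaffold protein, had 9 spread over 1945 kb, 234 kb apart in the median. Dlg2 had the lowest ratio over the body, 0.919 (0.895 to 0.944). Hydin, Agap1, Camta1 and Sox5 had 8 sites each.

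Per length, Anxa6, an annexin, was the densest gene of at least 50 kb with 4 or more sites, at 7.36 sites per 100 kb. Myo18a followed with 7 sites (6.81 per 100 kb), Clip2, a linker of microtubules, with 4 (6.34), Limk2, a kinase of the actin regulator cofilin, with 4 (6.16) and Ninj2 with 6 (5.61). Diap1, a formin, had 5 sites (5.44), 4831426I19Rik had 4 (5.01), Dnahc17, a dynein heavy chain, 5 (4.65), Vgll4 5 (4.57) and Vwf, von Willebrand factor, 6 (4.29). Reads over the whole body of these 10 genes were 1.25 to 1.63 times IgG, highest in Clip2. A high number of sites and the ratio over the body share their reads, so the second is no independent measure.

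Of 188 genes over 500 kb, 25 (13.3%, 8.79 to 19.002) had no site. The longest were Fhit, a dinucleoside hydrolase, at 1612 kb, Lingo2 at 1245 kb, Dcc, a netrin receptor, at 1092 kb, and Erbb4, a receptor tyrosine kinase, at 1076 kb. 1700112E06Rik, Sntg1, Nell1 and Dpyd, the first enzyme of pyrimidine breakdown, were the next. Their bodies were well covered by reads, for example with 8457 RAD21 and 7888 IgG reads in Fhit and 4825 and 4927 in Erbb4. The ratios over the body of these 8 genes lay between 0.900 and 0.985, beside 0.957 for the reads outside sites in all gene bodies. Fhit and Sntg1 lay above that value and Erbb4 and Lingo2 below it, so the absence of a site did not go with a low ratio in each of them.

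Gene groups listed by function are given beside the shares over all genes, which were 3.74% for a site at a start, 19.3% for a site in the body and 37.3% for one within 10 kb. Of 20 genes of cohesin, its regulators and CTCF, none had a site at a start, 2 (10%) had one in the body and 6 (30%) within 10 kb. The first 2 were Pds5b, a cohesin regulator, with 2 sites and Smc1b, the meiotic SMC1, with 1. Of 22 pluripotency genes 2 had a start site (9.09%, 1.12 to 29.2), Pou5f1 and Stat3, 4 (18.2%) had a site in the body and 11 (50%) within 10 kb. The share in the body was close to that over all genes, though the listed genes are shorter, with a median length of 8.85 kb against 15.5 kb. The interval at starts covers the share over all genes. Esrrb, a nuclear receptor of the ESC network, held 2 sites in its body, and Nanog had 2 within 10 kb and none in it. At the start of Pou5f1 there were 4 reads in each library, and at that of Nanog 15 RAD21 and 12 IgG reads. A site was counted within 1 kb of any annotated start of a gene, but reads only within 500 bp of the outermost start.

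Of 23 early lineage genes on the list (Sox1 was not matched), 1 (4.35%) had a start site, Nes, an intermediate filament of neural precursors, none had one in the body and 7 (30.4%) had one within 10 kb. Of 40 Hox gene models, 4 had a start site (10%, 2.79 to 23.7), 7 a site in the body (17.5%) and 23 within 10 kb (57.5%). Hoxa5 had 41 RAD21 and 6 IgG reads around its start and Hoxa7 had 33 and 5. Hoxa3 is listed under 2 models that share their sites. Hox genes are crowded, so neighbours share the same sites within 10 kb and are not independent.

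None of the 76 genes of cytosolic ribosomal proteins had a site at a start or in the body, and 24 (31.6%) had one within 10 kb. At starts the upper limit of this count was 4.74%, above the share over all genes. These genes are short, with a median length of 3.40 kb against 15.5 kb of all genes. Of 67 genes of the histone clusters 1 (1.49%) had a start site and 13 (19.4%) a site within 10 kb. Olfactory receptor genes, which stand in large arrays, had the lowest share within 10 kb of the 7 lists. They had a start site in 2 of 1081 (0.185%, 0.0224 to 0.667), a site in the body in 4 (0.370%) and one within 10 kb in 61 (5.64%). The share with a site in the body rose with gene length. Median lengths were 0.53 kb in histone genes, 0.963 kb in olfactory receptors, 4.08 kb in Hox genes and 8.07 kb in early lineage genes. Per Mb of body there were 20.3 sites in Hox genes, 9.33 in pluripotency genes and 9.04 in histone genes, against 6.51 over all genes. There were 3.18 in olfactory receptors, 2.45 in the cohesin list and 0 in the early lineage and ribosomal lists. Each list had 7 sites or fewer. Read ratios around starts were 0.926 (0.894 to 0.958) in olfactory receptors and 0.993 (0.836 to 1.18) in histone genes, against 1.33 in all genes. The ratio was 2.13 (1.75 to 2.60) in Hox genes, whose reads include those at the start sites of Hoxa5 and Hoxa7. The intervals of the olfactory receptor, histone and Hox lists did not cover 1.33. The ratio was 1.19 in ribosomal protein genes and 1.41 (1.06 to 1.87) in early lineage genes. The cohesin list had 1.48 (1.08 to 2.04) and pluripotency genes 1.70 (1.30 to 2.24). The intervals of the ribosomal, early lineage, cohesin and pluripotency lists all covered 1.33. Each interval pools the reads of a list and leaves out the spread between its genes. It therefore cannot decide whether a list differs from all genes. The cohesin list had no start site, and whether the ratios follow the counts of start sites was not tested.

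A CTCF matrix 20 bases wide was learned from the sites of odd-numbered chromosomes and applied to the even-numbered ones, and the reverse, so that no site was scored with a matrix it had helped to make. Its consensus on even chromosomes was GTGGCCACCAGAGGGCACCA. At a strict limit, passed by a share of 1e-05 of positions outside sites, 28.2% of the sites had a match within 150 bp of the summit (27.5 to 29.0), against 0.221% of tiles of 301 bp outside sites. At a looser limit of 1e-04, 82.5% did (81.9 to 83.1), against 2.72% of tiles. The strict limit thus kept a minority of sites, and the share depends on the limit far more than on counting error. The sequence outside sites was not cleared of CTCF sites that lack a RAD21 site, which the paper also found. Motifs there can raise both limits, and how far this lowers the shares was not tested.

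Matches were least frequent at gene starts. At the strict limit 18.2% of sites at starts had one (15.6 to 21.1), against 31.9% at ends (27.5 to 36.6), 28.9% in bodies, 29.1% near genes and 27.4% far from genes. The looser limit gave 69.5% at starts and 81.0% to 84.6% elsewhere. The highest-scoring site of all at a start, that of 2610002J02Rik, had no match at either limit, nor had those of Wbscr28 and Ttc24. By gene density, 27.2% of the sites in the poorest quintile and 30.1% in the richest had one at the strict limit. Around starts and ends the motif pointed in the direction of transcription in 54.6% of the sites before a start (49.5 to 59.7) and in 60.7% of those after an end (54.1 to 67.0), at the looser limit. At the strict limit the shares were 47.4% (37.2 to 57.8) and 59.2% (48.8 to 69.0).

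The relative direction of the motif at neighbouring sites depended on their distance. Pairs of neighbouring sites that both had a match were convergent when the motifs faced each other, divergent when they faced away, and in the same direction otherwise. At the looser limit 10336 pairs were available, of which 26.0% were convergent, 27.7% divergent and 46.3% in the same direction. Convergent pairs were 87 of 1279 at distances up to 10 kb (6.80%, 5.48 to 8.32). Their share rose to 18.3% at 10 to 50 kb, 29.6% at 50 to 100 kb, 33.5% at 100 to 200 kb, 35.9% at 200 to 500 kb and 38.7% (34.8 to 42.7) over 500 kb. Divergent pairs went the other way, from 34.0% (31.4 to 36.7) up to 10 kb to 15.7% (12.8 to 18.8) over 500 kb. The intervals at both ends of the range did not overlap in either class.

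**Figure D5:**
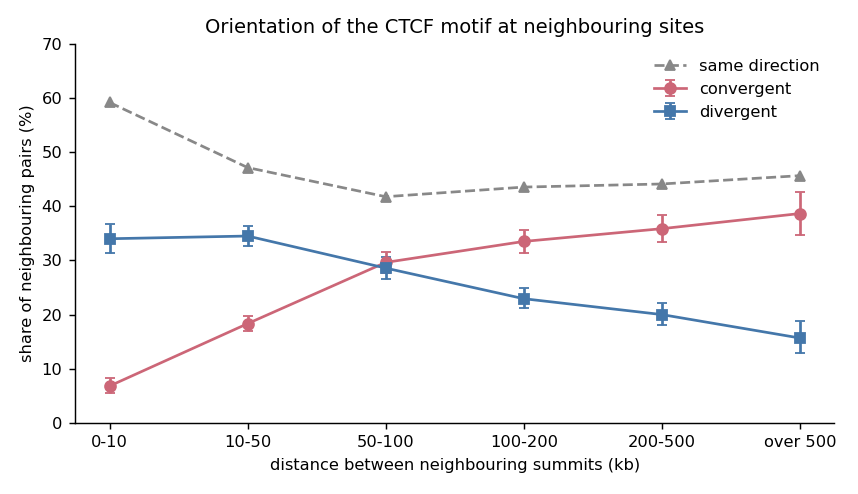
Share in % of neighbouring pairs of RAD21 sites whose CTCF motifs are convergent, divergent or in the same direction, by the distance in kb between their summits, at the looser limit of 1e-04, with 95% counting intervals for convergent and divergent pairs. Convergent pairs rise from 6.80% to 38.7% and divergent pairs fall from 34.0% to 15.7%.

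At the strict limit 1273 pairs were available. Convergent pairs were 12 of 166 up to 10 kb (7.23%, 3.79 to 12.3) and 21 of 59 over 500 kb (35.6%, 23.6 to 49.1), after 36.6% at 200 to 500 kb. Divergent pairs were 31.3% (24.4 to 39.0) up to 10 kb and 20.3% (10.98 to 32.8) over 500 kb, and these intervals overlapped. With only sites that scored at least 100 and the looser limit, 7 of 372 pairs were convergent up to 10 kb (1.88%) and 34.5% at 100 to 200 kb, after which the share was 31.9% and 33.0%. The low share of convergent pairs at short distance was thus present in both limits and among the stronger sites, while the rise beyond 200 kb was not seen among the stronger sites. Neighbouring pairs share sites with the next pair, so their counts are not fully independent.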

How the data were processed

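The ESC RAD21-GFP and ESC IgG libraries were used, and the other 2 libraries were not used here. They were sequenced on the Genome Analyzer II with reads of 35 bases, and the authors deposited 1 aligned read per line on mm9, so each line is a count of 1 read. The aligner is not given in the sources used here. No autosomal position and strand was repeated in either file, and 7 broken lines of the IgG file were skipped. The authors called peaks with MACS against the IgG library. The deposited score of a peak is 10 times a negative log10 p-value. Separate parts of the study state different p-value limits, and the lowest score was 50.0. The deposited signal of a summit is the height of piled-up reads, not scaled. Peak lists were taken as deposited.

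Reads were moved 100 bp towards the fragment centre and scaled to autosomal reads (RPM). The median, quartiles and shares of ratios over sites and windows used 1 added read, and pooled ratios and those of named sites, clusters and genes used none. Shares have exact Clopper-Pearson intervals, ratios exact conditional Poisson intervals and medians order-statistic intervals, all at the 95% level. An IgG count of 0 was taken to allow up to 3 reads. The depth of 12602155 to 13714772 autosomal reads limits the precision of single sites, whose IgG count had a median of 3. Genes were those of GENCODE for mm9. A gene-density bin, a start, an end and a cluster were defined as stated in the text. The CTCF matrix was seeded with the published core motif. Named genes were the 15 with most sites, the 10 densest of at least 50 kb with 4 or more sites, the 10 highest-scoring starts, the 8 highest-scoring ends, those at the 8 largest clusters, the 8 longest over 500 kb without a site, and examples from lists. The members, lists and rules were chosen with earlier results of these data known. Steps were tested on simulated data. Python 3.11.15, numpy 2.4.6, scipy 1.17.1, numba 0.67.0 and matplotlib 3.10.9 were used. In all 62 alternative settings were tried.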

Additional observations from a re-analysis of the deposited data

Results flagged for a closer look

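Sites outside the autosomes were not used in the comparisons above. On chromosome X there were 208 sites, 1.28 per Mb, and RAD21 was 9.03 times IgG over their pooled reads (8.18 to 9.99, from 4245 and 432 reads), with 180 IgG RPM per Mb, less than on any autosome. This pooled ratio is not on the scale of the autosomal median of 5.82, beside which the median ratio per site on chromosome X was 6.55. The ratio was above 1 at all 208, as calling them required. On unplaced contigs 18 sites had a pooled ratio of 6.19 (4.87 to 7.96, from 525 and 78 reads). Both values are given because they are signals in data outside the main measurement.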

How the results depend on the processing

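Of 62 alternatives 9 left the value within its interval (counts within 1.5 times) and 53 moved it by more. Most of these values are distances, counts or shares and have no direction that could reverse. The richest to poorest ratios, which have a direction, stayed above 1 in every setting tried. These are values with no test, and each alternative redefines what is counted, so a move by construction was usual. No paired analysis was possible because each side had 1 library. The depth limits single sites, with a median of 3 IgG reads.

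The median site ratio of 5.82 was 4.59 within 500 bp of the summit, 7.42 with 0.1 added reads, 6.05 when scaled to reads outside sites and 7.35 for scores of at least 100. The median distance of 74.7 kb was 161 kb at scores of at least 100 and 105 kb at 70. The share of sites with another within 10 kb, 23.5%, was 13.8% and 18.7% at those scores, 24.9% between peak edges, and 13.4% and 37.7% with limits of 5 and 20 kb. The 235 clusters became 73 and 553 when joined within 5 and 20 kb, and 41 and 109 at scores of 100 and 70.

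The richest to poorest ratio of site density, 5.53, was 4.97 in bins of 2 Mb, 4.34 by the share of a bin in gene bodies, 5.12 by all annotated genes and 6.66 at scores of at least 100. The same ratio for reads outside sites, 1.08, was 1.07 in bins of 500 kb (1.0721), 1.05 by gene bodies and 1.07 with 5 kb around sites left out (1.0716).

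Summits at starts, 5.24%, were 3.14% within 500 bp, 20.2% within 5 kb, 6.68% for all annotated genes, 3.16% for outermost starts and 4.61% at scores of at least 100. Summits at ends, 3.09% where sites also at a start are kept, were 1.62% within 500 bp, 14.9% within 5 kb, 4.38% for all annotated genes and 2.80% with ends near a start left out. Genes with a start site, 3.74%, were 2.20% within 500 bp, 13.9% within 5 kb and 1.53% at scores of at least 100, and those with an end site, 2.23%, were 1.18%, 11.2% and 0.994%. Genes with a site in the body, 19.3%, were 9.88% and 14.6% at scores of 100 and 70 and 37.3% with 10 kb added, and the 109 genes with 5 or more were 10 and 43 at those scores and 147 with 10 kb added.

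Starts at 2-fold, 23.3%, were 32.5% within 250 bp, 28.4% with 0.1 added reads and 37.1% with at least 20 reads. Ends, 12.5%, were 19.2%, 16.3% and 23.2%, and 13.3% when scaled to reads outside sites. In these settings the share at starts was above that at ends. The windows had to pass a read limit, which a start did more easily where RAD21 was high. This order therefore cannot be read as a difference between all starts and all ends. Sites with a CTCF motif, 28.2%, were 10.4% within 50 bp, 82.5% at the looser limit and 29.1% at scores of at least 100. Convergent pairs, 25.2% at the strict limit, were 19.02% among neighbours within 100 kb.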
